A study of Homo sapiens with 4 samples.

Results

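Of 10657 genes with at least 100 counts in 1 library, 206 were kept as changed only with both drugs. They stood at least 2-fold from control with the 2 drugs together and within 1.6-fold of it with each drug alone. These genes were chosen by their measured ratios in the deposited gene counts. Each count had 0.5 added and was scaled to its library's sum, as CPM. A gene was kept when its ratio of combination to control was at least 2 or at most 0.5 while its ratios of neobractatin alone and of trametinib alone to control both stayed within 1.6-fold of control either way. Symbols of read-through genes and symbols starting with LOC were left out, which removed 1 gene. Of the 206 genes, 102 were higher and 104 were lower with the combination. The table held 16834 genes in all. Because the same 4 libraries chose the genes, the ratios to control given here are descriptions and no test was made on them.

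The study asked how neobractatin (NBT), a natural compound from a Garcinia species, and trametinib, an inhibitor of the kinase MEK, act together on pancreatic ductal adenocarcinoma cells. RNA was sequenced from human cells titled MIA PaCa-2, an established pancreatic carcinoma line, labelled wild type in every group. A control was set against 12 h of exposure to NBT at 1 µM, to trametinib at 5 µM, or to both at these doses, which gave 4 groups with 1 library each. No difference between groups therefore has a replicate check, and every interval printed is a 95% Clopper-Pearson interval that covers counting error only. Whether a library came from pooled cultures was not given. The cell line entries of the treated samples carry other numbers after the name than the control's, while the titles name the same line throughout.

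The libraries summed to between 18776254 and 19614826 estimated gene counts. These estimates are called reads here and rounded to whole numbers. In bulk RNA, fewer cells of a type or state and less RNA per cell cannot be told apart. The epithelial markers KRT8, KRT18 and EPCAM were abundant, with EPCAM between 3113 and 3502 reads. In the order control, NBT, trametinib and combination, KRT8 had 63594, 57181, 38101 and 26811 reads. KRT18 had 41334, 38414, 14162 and 14049. Endothelial CDH5 had between 0 and 2 reads, VWF between 3 and 25 and PECAM1 between 14 and 26. Fibroblast LUM had between 0 and 5 reads and COL1A1 between 27 and 98. Leukocyte PTPRC had between 8 and 17 reads and LYZ between 30 and 36. The T cell gene CD3E had 0 reads in the control and NBT libraries, 55 with trametinib and 29 with the combination. Vimentin (VIM), for which MIA PaCa-2 cells are known, was low at 202 reads or 11.5 TPM (a unit corrected for transcript length and library size) in control, while CDH1 stood at 85.4 TPM and CDKN2A, which this line is known to have lost, at 264 TPM. CDH1 and CDKN2A were looked at after their values were seen. The identity of the line was not tested, and the cells are named here as the labels name them. DUSP6, a direct output of the ERK pathway, had 329 reads in control, 521 with NBT, 14 with trametinib and 9 with both. The 2 libraries that received trametinib were thus the low ones for this gene.

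MEK is the kinase that switches on ERK, which drives entry into the cell cycle through the D-type cyclins and, further on, the E2F transcription factors. E2F proteins switch on the genes that copy DNA in S phase, among them the MCM helicase and the sliding clamp PCNA. Cells under protein or endoplasmic reticulum stress raise chaperones such as HSP70 and slow protein synthesis through kinases such as PERK.

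Promoter letters are shown for the higher members that held a full cAMP response element (CRE) and for S-phase members that held an E2F site in the 250 bases before the RefSeq start, since CREB and ATF factors of the stress response bind the first and E2F factors the second. Sequences and starts came from RefSeq on GRCh38.p14, where 88 of the 102 higher and 85 of the 104 lower members had an entry. The 6 higher members with the CRE letters TGACGTCA, and the S-phase members E2F1 and MCM6 with the E2F letters TTTGGCGC, are given 5′ to 3′ on the strand of the gene, with the motif in capitals. CHMP1B holds both motifs. The lower members FAT1, LDHA and PTPRU also held the CRE letters, and MCIDAS and CCDC189 the E2F letters. These are not printed.
DUSP1, chr5:172771293-172771340, minus strand: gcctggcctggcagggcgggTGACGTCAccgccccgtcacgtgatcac
GCC1, chr7:127585600-127585647, minus strand: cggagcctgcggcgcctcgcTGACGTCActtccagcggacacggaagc
CHMP1B, chr18:11851332-11851394, plus strand: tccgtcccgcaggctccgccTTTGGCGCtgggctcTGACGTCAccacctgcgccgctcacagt
NEK1, chr4:169612606-169612653, minus strand: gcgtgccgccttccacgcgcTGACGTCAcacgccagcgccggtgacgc
CLCN3, chr4:169620502-169620549, plus strand: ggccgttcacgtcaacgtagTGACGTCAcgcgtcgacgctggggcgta
MCAM, chr11:119317135-119317182, minus strand: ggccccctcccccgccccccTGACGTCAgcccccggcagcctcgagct
E2F1, chr20:33686386-33686425, minus strand: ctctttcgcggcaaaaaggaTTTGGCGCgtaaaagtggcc
MCM6, chr2:135876506-135876615, minus strand: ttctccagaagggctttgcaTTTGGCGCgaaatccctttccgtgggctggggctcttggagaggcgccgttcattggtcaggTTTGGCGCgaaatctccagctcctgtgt

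Searched on both strands, the CRE letters were in 6 of 88 higher promoters (6.82%), in 3.53% of lower ones and in 3.13% of the 8832 promoters of all genes with at least 100 counts. The E2F letters were in 1.14% of higher, 4.71% of lower and 0.951% of all promoters. They were also in 2 of the 7 DNA replication members with an entry, which are the E2F1 and MCM6 windows printed above. In E2F1 the site lay 20 to 13 bases before the start, and MCM6 held it 152 to 145 and again 90 to 83 bases before the start. The CCAAT letters were in 5 of those 7, in 35.2% of higher, 28.2% of lower and 35.7% of all promoters. The ETS letters CCGGAAG were in 13.6% of higher, 4.71% of lower and 17.9% of all promoters. The antioxidant response letters TGACNNNGC were in 19.3%, 7.06% and 12.1% in the same order. An exact match to the fixed pattern used for the heat shock element was in none of the member windows and in 0.215% of all promoters. For the endoplasmic reticulum stress element, an exact match was in none of the member windows and in 0.159% of all promoters. Imperfect copies of these elements were not searched for, so a window without a match may still hold such an element. The TEAD letters GGAATG were in 12.5% of higher, 5.88% of lower and 9.22% of all promoters. The AP-1 letters TGANTCA, the E-box CACGTG and the ATF4 element TGATGNAA were in 5.68%, 7.95% and 2.27% of higher promoters, in 4.71%, 9.41% and 1.18% of lower ones and in 3.52%, 9.25% and 1.22% of all. GC content was 65.0% in higher, 67.4% in lower and 64.8% in all promoters. These letters describe the windows only and say nothing of a factor's binding.

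Seen from the whole table, 852 genes (7.99% of those with at least 100 counts) stood at least 2-fold from control with the combination. There were 437 higher (4.1%) and 415 lower (3.89%). In 223 of the 852, NBT alone was already past 1.6-fold while trametinib was within it. In 285, trametinib alone was past 1.6-fold, and in 137 both drugs were. The remaining 207 included the 206 members, which made up 24.2% of the 852 genes and 1.93% of all tested. By direction the members were 0.957% higher and 0.976% lower of all genes with at least 100 counts. With the places of the libraries exchanged, 83 genes were at least 2-fold higher and 32 at least 2-fold lower with NBT while trametinib stayed within 1.6-fold. For trametinib with NBT within 1.6-fold these numbers were 176 and 192. In the combination library, 75 of the 83 and 22 of the 32 NBT genes, and 69 of the 176 and 119 of the 192 trametinib genes, were past 2-fold in the same direction.

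Most members leaned the same way with the single drugs, below the limit. The median ratio of the higher members was 1.42 with NBT, 1.27 with trametinib and 2.14 with both. For the lower members it was 0.713, 0.801 and 0.447. Over all genes with at least 100 counts the medians were 0.997, 1.04 and 1.01. The ratios share the control library that also chose the members, so part of this lean can follow from the choice of genes. NBT was the single drug nearer to the combination in 73 of the 102 higher and 71 of the 104 lower members, and in 6457 of all 10657 genes. Both single drugs lay within 1.25-fold of control in only 9 members. These, most of them named after their values were seen, were RTP3, PRDM4 and ICA1L among the higher, and TBC1D8, MROH6, UNG, CCDC189, MAGEA2B and ARHGDIB among the lower. RTP3 had 288 reads in control, 325 with NBT, 298 with trametinib and 630 with both, so that only the combination stood apart. In 22 higher and 22 lower members the product of the 2 single-drug ratios already reached 2-fold in the same direction, as it did in 890 of all 10657 genes.

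Many members sat close to the limit. The highest ratio among the higher members was 7.15 and the lowest among the lower was 0.220, but only 4 higher and 8 lower members were past 3-fold, against 294 of all 10657 genes in either direction. The interval of the ratio lay wholly past 2-fold in 34 higher and 45 lower members, and in 558 of all genes. Just inside the limit, MCAM had a ratio of 2.003, ACVR1 of 2.003 and ICA1L of 2.002, while POLE2 and GEMIN4 had 0.498 and ATF5 0.497. Just outside it, MPZL3 had 1.995, CFAP69 1.997, MTRNR2L9 1.9997, CAD and CAMK2N1 0.501 and DEPDC7 0.502.

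The combination was also set against each single-drug library. The intervals of its ratio to NBT and of its ratio to trametinib both excluded 1 in all 102 higher members and in 103 of the 104 lower ones, against 3460 of all 10657 genes, an outcome that the rule nearly fixes. It was at least 1.5-fold beyond both single drugs in 58 higher and 64 lower members. Of the 437 higher and 415 lower genes that were 2-fold from control, 160 and 140 met this, or 1.5% and 1.31% of the 10657. It was at least 2-fold from each of the 3 other libraries in 5 higher and 11 lower members, against 0.394% higher and 0.403% lower of all genes. The rule favours such genes, so nothing is read from these shares.

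**Figure D1:**
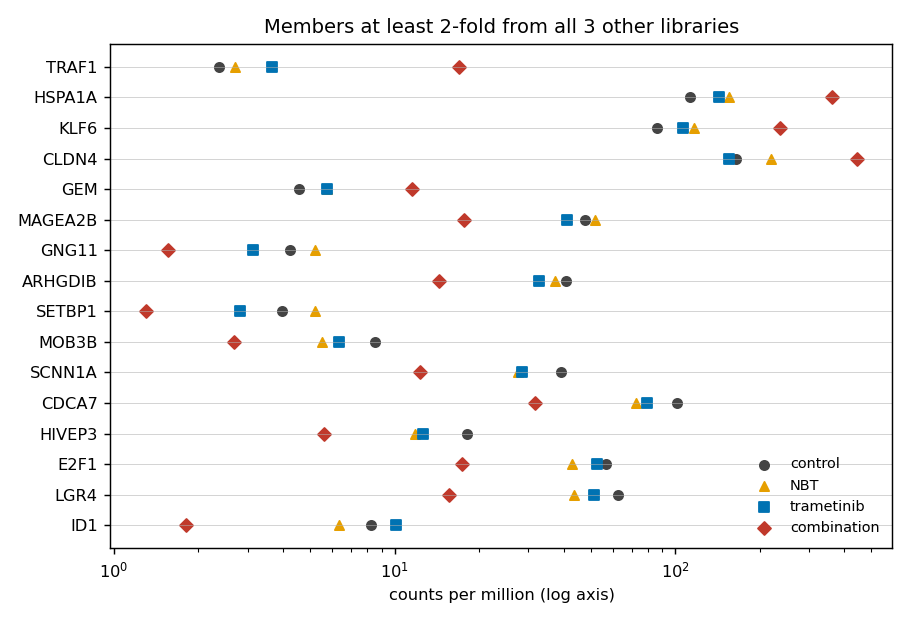
CPM on a log axis in each of the 4 libraries for the 16 members at least 2-fold from all 3 other libraries, 1 point per library and no error bar. The combination points stand apart from the other 3 in every row, to the right in the upper 5 genes and to the left in the other 11.

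These 16 genes are the members for which the combination library stood at least 2-fold from each other library. Among all 10657 genes, 42 higher and 43 lower ones did so, these members included. For MAGEA2B it no longer holds when its near-identical copy is added, as given below. The 5 higher were TRAF1, an adaptor of TNF receptor signalling, HSPA1A, the stress-inducible HSP70 chaperone, the transcription factor KLF6, the tight junction protein CLDN4 and the small GTPase GEM. The 11 lower were ID1, an inhibitor of helix-loop-helix factors, LGR4, a receptor for R-spondins, E2F1, the zinc finger factor HIVEP3, CDCA7, the sodium channel subunit SCNN1A, MOB3B, SETBP1, ARHGDIB, GNG11 and MAGEA2B. The plot of levels by library shows that the control and single-drug points of most of these genes lay close together on the log axis.

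**Figure D2:**
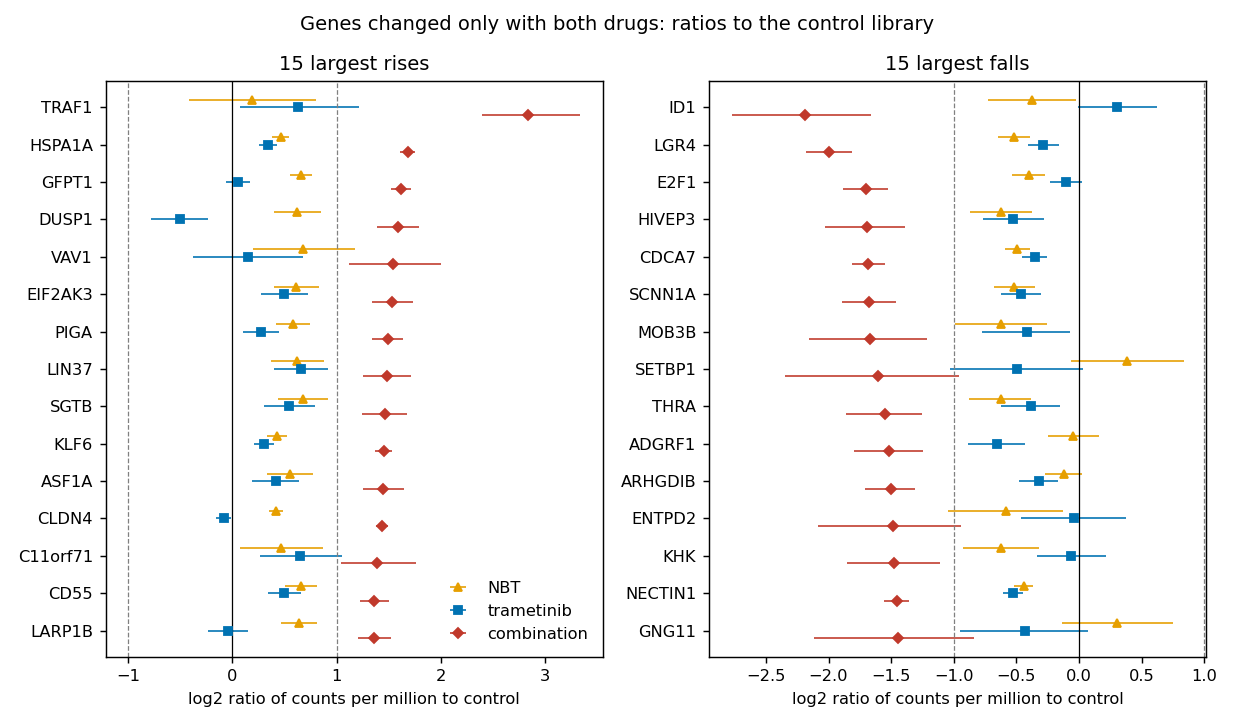
Log2 ratios of CPM to control with NBT, trametinib and the combination for the 15 members with the highest and the 15 with the lowest combination ratio, with bars for the 95% Clopper-Pearson interval of counting error. Dashed lines mark 2-fold, and all 30 combination points lie beyond them while no single-drug point reaches them.

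TRAF1 had the highest ratio. It had 44 reads in control, 52 with NBT, 69 with trametinib and 332 with both drugs. The ratio of combination to control was 7.15, or 2.84 on the log2 scale with an interval from 2.40 to 3.34. It rests on few reads in the other 3 libraries, all of which were below 4 CPM.

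The higher members with roles in protein quality and ubiquitin included HSPA1A. This gene had 2118 reads in control, 3021 with NBT, 2707 with trametinib and 7103 with both, a 3.21-fold ratio (log2 1.68, interval 1.61 to 1.75). Its near-identical neighbour HSPA1B had 3273, 5472, 3961 and 12405 reads and missed membership only because its NBT ratio was 1.62. The sum of both genes was 3.46-fold of control with the combination, so the rise did not depend on how shared reads were divided between them. Of the 16 heat shock proteins and partners with enough reads, HSPA1A was the only member. The list had 5 genes past 2-fold higher and a median log2 ratio of 0.17 with the combination.

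The co-chaperone SGTB had 240 reads in control, 397 with NBT, 354 with trametinib and 691 with both (2.76-fold), and clusterin (CLU), a secreted chaperone, had 3541, 4588, 4802 and 8751 (2.37-fold). SPSB1, an adaptor of a ubiquitin ligase, had 216, 287, 276 and 553 reads (2.45-fold). Further members with such roles, chosen after their values were seen, were the HSP40 protein DNAJC18 (2.24-fold), the ubiquitin-binding ZFAND5 (2.13-fold), the ubiquitin ligases PJA2 (2.16-fold) and RNF146 (2.04-fold) and the deubiquitinase CYLD (2.08-fold).

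Genes of the endoplasmic reticulum and Golgi apparatus were also among the higher members. EIF2AK3, which encodes the stress sensor kinase PERK, had 285 reads in control, 452 with NBT, 407 with trametinib and 861 with both (2.89-fold, log2 1.53, interval 1.34 to 1.73). GFPT1, the rate-limiting enzyme of hexosamine synthesis, had 1177, 1927, 1232 and 3773 reads (3.07-fold). For GFPT1 the trametinib library was near control, at 1.04-fold, and NBT gave 1.58-fold. PIGA, which starts the synthesis of GPI anchors, had 500, 773, 609 and 1467 reads (2.81-fold), and SARAF, a regulator of store-operated calcium entry, had 1447, 1953, 1856 and 3096 (2.05-fold). Members of the same compartments chosen after their values were seen were WFS1 (2.38-fold), CKAP4 (2.33-fold), STX5 (2.24-fold), GOLGB1 (2.24-fold), GCC1 (2.14-fold), CCPG1 (2.11-fold), TMEM41B (2.08-fold), PCYT1A (2.06-fold) and GORAB (2.02-fold). The fixed unfolded protein response list, which leaves out EIF2AK3 and WFS1, gave no member among its 19 genes. Of these, 13 were past 2-fold higher with the combination. The median log2 ratio of the list was already 1.10 with NBT alone.

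Several higher members are brakes or early responders of signalling. DUSP1, a phosphatase of MAP kinases, had 270 reads in control, 431 with NBT, 192 with trametinib and 848 with both (3.003-fold, log2 1.59, interval 1.39 to 1.79). The single drugs thus lay on opposite sides of control for DUSP1, at 1.54- and 0.705-fold. KLF6 had 1622, 2261, 2025 and 4641 reads (2.74-fold) and was the only member of the FOXO and growth factor receptor list of 14 genes. ZFP36, which binds AU-rich messages and speeds their decay, had 1238, 1803, 1473 and 2631 reads (2.03-fold). GEM had 85, 111, 108 and 225 reads (2.52-fold), and VAV1, a signalling protein best known in blood cells, had 59, 98, 66 and 181 (2.92-fold). The dual-specificity phosphatase DUSP16 (2.29-fold) and the Ras association protein RASSF1 (2.44-fold) were chosen after their values were seen. The MAPK output list, in which 15 of 16 genes were past 2-fold lower with the combination, held no member, and its median log2 ratio was -3.13 with trametinib alone.

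At the cell surface, CLDN4 had 3079 reads in control, 4257 with NBT, 2935 with trametinib and 8707 with both (2.71-fold, log2 1.44, interval 1.38 to 1.50). Only the NBT and combination libraries were above control. CD55, which protects cells from complement, had 588, 961, 839 and 1582 reads (2.57-fold). The adhesion molecule MCAM had 93, 150, 77 and 195 reads and the BMP receptor ACVR1 had 531, 788, 593 and 1111, both just inside the limit. The tight junction protein OCLN (2.09-fold), the sheddase ADAM17 (2.29-fold) and the drug efflux pump ABCG2 (2.02-fold) were chosen after their values were seen. ABCG2 had 327, 343, 496 and 691 reads, so NBT alone was near control.

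The chromatin genes LIN37, a subunit of the DREAM complex, and ASF1A, a histone chaperone, stood at 2.79- and 2.72-fold with the combination. LIN37 had 208, 332, 331 and 607 reads in the order control, NBT, trametinib and combination, and ASF1A had 289, 438, 389 and 822. Both genes were intermediate with each single drug. The RNA-binding LARP1B had 451, 726, 442 and 1209 reads (2.56-fold), RTCA, an RNA cyclase, had 1155, 1845, 1455 and 2494 (2.07-fold), C6orf62 had 3404, 5446, 4242 and 7313 (2.06-fold) and C11orf71 had 90, 129, 143 and 247 (2.62-fold). TMEM40 had 779, 994, 1007 and 1755 reads, and its log2 ratio of 1.11 became 0.97 with the deposited TPM values. HRK, a BH3-only activator of apoptosis, had 145, 197, 200 and 307 reads (2.03-fold) and was the only member among 24 apoptosis regulators.

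Among the lower members, genes of DNA replication formed the largest group with a shared list. Of the 22 listed genes, all with at least 100 counts, 9 (40.9%) were members against 1.93% of all genes. They were E2F1, MCM3, UHRF1, CDT1, CCNE2, MCM4, PCNA, MCM6 and TYMS, and all were lower. The median log2 ratio of the list was -0.38 with NBT, -0.14 with trametinib and -0.99 with both. The combination was the lowest of the 4 libraries in 21 of the 22 genes, a pattern that 29% of all genes with at least 100 counts showed. For the 9 members the rule fixes this outcome. The list was also chosen with earlier results of these data known, so these shares are descriptions only.

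**Figure D3:**
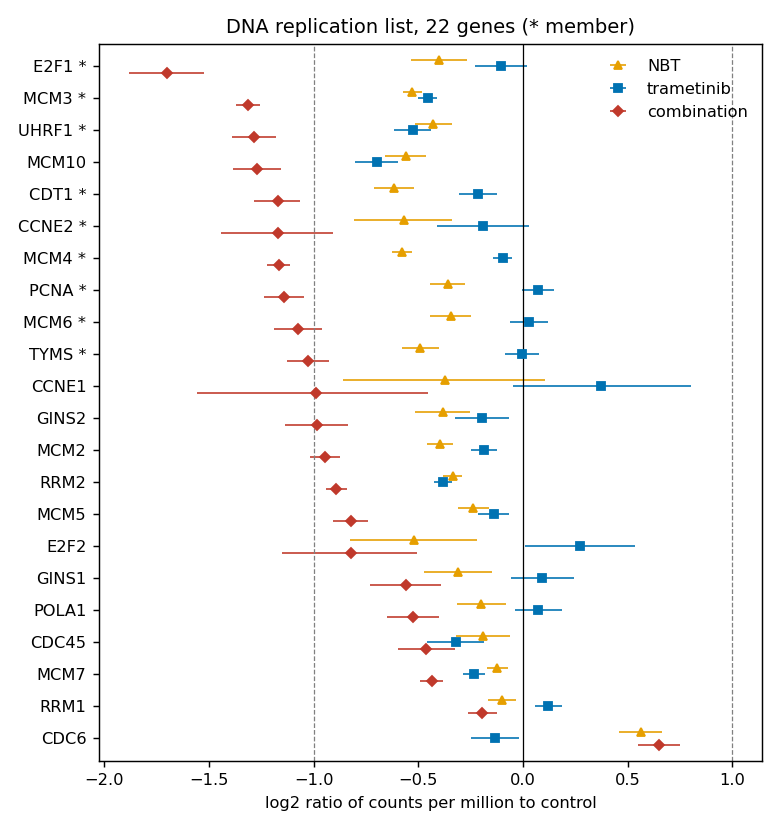
Log2 ratios of CPM to control for the 22 listed DNA replication genes with NBT, trametinib and the combination, with 95% Clopper-Pearson intervals of counting error, ordered by the combination ratio. The combination point lies to the left of both single-drug points in every gene but CDC6, and asterisks mark the 9 members.

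E2F1, the activator of S-phase genes, had the lowest ratio of the list. It had 1061 reads in control, 832 with NBT, 996 with trametinib and 341 with both drugs. The ratio was 0.308 (log2 -1.70, interval -1.88 to -1.52), and the combination library was the low one.

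The helicase of the replication fork, its loader and the clamp were all represented. The helicase subunits MCM3, MCM4 and MCM6 had ratios of 0.402, 0.446 and 0.475. MCM3 had 8888, 6378, 6542 and 3736 reads in the order control, NBT, trametinib and combination, MCM4 had 8150, 5649, 7690 and 3793, and MCM6 had 1869, 1524, 1925 and 928. For MCM4 and MCM6 the trametinib library was within 1.25-fold of control, at 0.935 and 1.02. CDT1, which loads the helicase, had 2163, 1460, 1882 and 1002 reads (0.444). PCNA, the sliding clamp, had 2706, 2182, 2874 and 1281 reads (0.453), and again trametinib alone was near control at 1.05.

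The other listed members are a nucleotide enzyme, a cyclin and a factor of DNA methylation. Thymidylate synthase, TYMS, had 2452 reads in control, 1807 with NBT, 2466 with trametinib and 1257 with both (0.491). Cyclin E2, CCNE2, had 369, 257, 326 and 171 reads (0.445). UHRF1, which brings DNMT1 to newly copied DNA, had 2401, 1848, 1681 and 1030 reads (0.411), so that all 3 treated libraries were below control.

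The rest of the list lay near or short of the limit. MCM10 was past it at 0.414 but was no member, because trametinib alone gave 0.616. Next came CCNE1 at 0.504, GINS2 at 0.506, MCM2 at 0.519, RRM2 at 0.539, MCM5 at 0.565 and E2F2 at 0.566. RRM1 had a ratio of 0.874. CDC6, which loads the helicase with CDT1, stood at 1.57-fold of control with the combination and 1.48-fold with NBT, the only listed gene above control with both drugs. The mitosis list had 0 members and 0 genes past 2-fold among 21. Its median log2 ratio was -0.08 with the combination, and the combination was the lowest library in 2 of the 21 genes.

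Further lower members with roles in S phase or DNA care were chosen after their values were seen, apart from CDCA7 and POLE2. CDCA7, a factor of DNA methylation, had 1905 reads in control, 1403 with NBT, 1504 with trametinib and 620 with both (0.312, log2 -1.68, interval -1.82 to -1.55). The maintenance methyltransferase DNMT1 had 6564, 4869, 4164 and 2909 reads (0.424). SKP2, the F-box protein that marks CDKN1B for destruction, had 1892, 1429, 1899 and 851 reads (0.431). The checkpoint adaptor CLSPN stood at 0.414, the pyrophosphatase DCTPP1 at 0.408, the repair genes NTHL1, TONSL and UNG at 0.423, 0.437 and 0.472, the chromatin assembly subunit CHAF1A at 0.467 and the polymerase subunit POLE2, with 277, 229, 267 and 144 reads, at 0.498. UNG was within 1.25-fold of control with each single drug, at 0.906 and 0.810.

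Members of the BMP, TGF-beta and YAP response were the second group with several listed genes. Of 14 genes with enough reads, 3 (21.4%) were members, all lower, against 1.93% of all genes. The list had 4 genes past 2-fold lower and a median log2 ratio of -0.53 with the combination. ID1 had the lowest ratio of all 206 genes, with 154 reads in control, 123 with NBT, 192 with trametinib and 35 with both drugs. Its ratio was 0.220 (log2 -2.18, interval -2.77 to -1.66). SMAD7, the inhibitory SMAD, had 177, 200, 133 and 79 reads (0.429), and CCN1, a matricellular protein, had 14826, 9834, 12157 and 6905 (0.446). ID1 was above control with trametinib alone, and SMAD7 with NBT alone, at 1.23 and 1.09.

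Some lower members are receptors, channels or adhesion genes. LGR4 had 1171 reads in control, 845 with NBT, 970 with trametinib and 307 with both (0.251, log2 -1.99, interval -2.18 to -1.81). SCNN1A had 737, 533, 540 and 241 reads (0.313), and the adhesion receptor ADGRF1 had 408, 410, 261 and 149 (0.349). For ADGRF1 only the 2 trametinib libraries were below control by more than 1.25-fold. The cell adhesion molecule NECTIN1 had 3029, 2307, 2118 and 1153 reads (0.364). The basement membrane collagen COL4A2 had 3849, 2542, 2505 and 1879 reads (0.467), with single-drug ratios of 0.638 and 0.645 near the edge of the band. It was the only member of 23 matrix, integrin and adhesion genes, 10 of which were past 2-fold lower. GAS6, the ligand of AXL-family receptors, had 3925, 2574, 3426 and 1733 reads (0.423). The guidance genes PLXNA1 (0.406), NRP2 (0.451) and SEMA3A (0.478), the cadherin FAT1 (0.480) and the receptors S1PR5 (0.417), BDKRB2 (0.435), P2RY2 (0.466) and MST1R (0.495) were chosen after their values were seen.

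Other lower members have roles in metabolism or signalling. LDHA, which makes lactate from pyruvate, was the most abundant lower member at 1954 TPM in control, 1242 with NBT, 1723 with trametinib and 791 with both. Its reads were 37054, 25575, 33889 and 16065 (0.415), and it was the only member of 17 hypoxia and glycolysis genes, whose median log2 ratio was -0.15. KHK, the fructokinase, had 229, 154, 222 and 86 reads (0.358), and the ectonucleotidase ENTPD2 had 100, 69, 98 and 37 (0.357). ARHGDIB had 764, 727, 617 and 281 reads (0.352, log2 -1.50, interval -1.71 to -1.31), and both single drugs were close to control. The thyroid hormone receptor gene THRA had 345, 231, 266 and 123 reads (0.343), and its log2 ratio of -1.55 was -1.19 with the deposited TPM values. HIVEP3 had 340, 229, 239 and 109 reads (0.309), MOB3B had 159, 107, 120 and 52 (0.315), SETBP1 had 74, 100, 53 and 25 (0.328) and GNG11 had 79, 101, 59 and 30 (0.367). With the deposited TPM values the log2 ratio of SETBP1 was -0.98 in place of -1.61, inside the 2-fold limit. The last pair had few reads, and their intervals of log2 -2.34 to -0.96 and -2.12 to -0.84 were wide.

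Abundant lower members without a listed role were TMEM109, ERGIC1 and IMP3. TMEM109 had 3819, 2815, 2708 and 1829 reads (0.459), ERGIC1, a protein between endoplasmic reticulum and Golgi, had 4903, 3481, 3284 and 2478 (0.484), and IMP3, a ribosome biogenesis factor, had 2230, 1683, 1722 and 1114 (0.478). In all 3 genes each treated library was below control and the combination was lowest. UTP20, a further ribosome biogenesis factor, had 1811, 1205, 1235 and 826 reads (0.437) and was the only member of the 19 genes of ribosome biogenesis and the MYC network. GEMIN4, of the complex that assembles spliceosomal particles, had 2411, 1788, 1565 and 1253 reads (0.498).

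ATF5 went against the direction of its list. The ATF4 and CHOP target list had 13 of 19 genes past 2-fold higher with the combination, while ATF5, itself a transcription factor of the integrated stress response, had 507, 371, 368 and 263 reads (0.497). The remaining lists held no member. They were NRF2 targets (15 genes, 10 past 2-fold higher), p53 targets (15 genes, 5 higher and 1 lower), cholesterol synthesis and LDL uptake (17 genes, 3 lower), NF-kB targets and cytokines (12 genes, 1 higher and 1 lower), interferon response (6 genes, 0 past 2-fold) and autophagy and lysosome (20 genes, 5 higher). Only 6 of the 17 interferon genes had enough reads. An empty list does not mean that members lack the role, since the lists are short. The lower member OAS3 (0.422), chosen after its values were seen, is not on the interferon list, nor is TRAF1 on the NF-kB list.

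**Figure D4:**
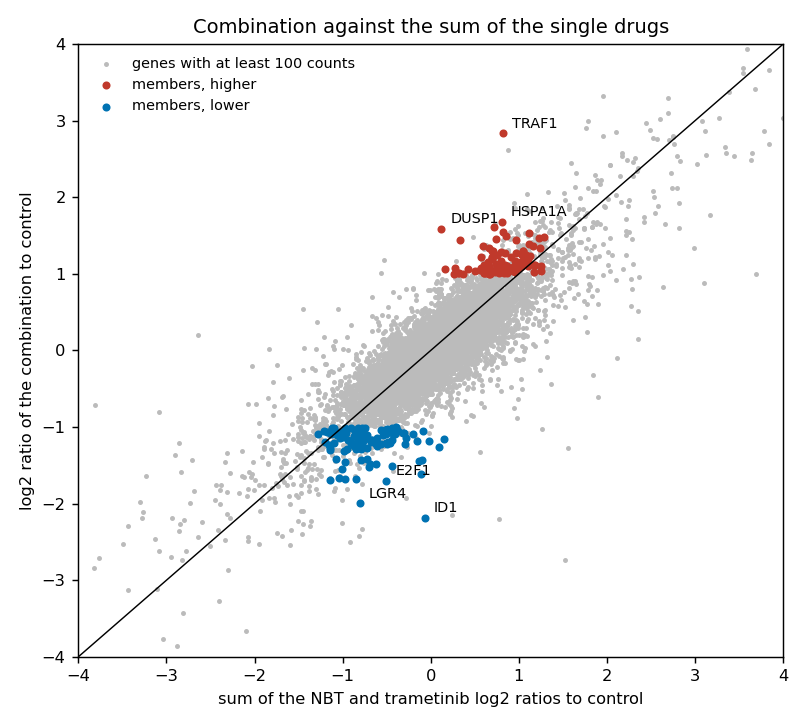
Log2 ratio of the combination to control against the sum of the log2 ratios of NBT and of trametinib to control for genes with at least 100 counts (grey) and for the higher (red) and lower (blue) members, with the line of equality; 33 genes beyond 4 on either axis are not drawn. TRAF1 and DUSP1 lie well above the line, and E2F1, LGR4 and ID1 well below it.

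The sum of the single-drug log2 ratios gave a second view of how far the combination went. All 3 ratios share the control library. The rule limits these same ratios and so favours a difference in the member's own direction. Nothing is therefore read from how the members compare with all genes here. The difference between the combination's log2 ratio and this sum had a median of 0.32 in the higher members, -0.49 in the lower ones and -0.02 over all genes with at least 100 counts. It was at least 1 in the member's own direction in 3 higher and 11 lower members, against 0.685% up and 0.967% down of all genes. The higher ones were TRAF1 (2.02), DUSP1 (1.47) and CLDN4 (1.10). The lower ones included ID1 (-2.12), SETBP1 (-1.50), S1PR5 (-1.36), MAGEA2B (-1.34), GNG11 (-1.32), PCED1B (-1.31), E2F1 (-1.19), LGR4 (-1.19), CCDC189 (-1.16), ARHGDIB (-1.06) and FAM111B (-1.02). At 0.5 the numbers were 28 higher and 50 lower, against 3.58% and 6.51%. In 6 higher and 11 lower members the combination fell short of the sum, as in RNF146 (-0.22) and COL4A2 (0.18). The plot of the combination against the sum of the single drugs shows most members within 1 log2 unit of the line.

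Transcript estimates, which the rule did not use but which come from the same reads, gave at least 1 transcript with 100 counts for 194 of the 206 members. Of 412 such transcripts, 336 were at least 1.5-fold from control in the direction of their gene and 33 lay on the opposite side of control. Transcript counts add up to the gene counts that chose the members, so agreement in direction is largely built in. Of the 104 members with 2 or more such transcripts, all of them moved at least 1.5-fold with the gene in 47, and at least 1 lay the other way in 25. For LDHA the main transcripts NM_005566.4 and NM_001165415.2 went from 21214 to 8925 and from 15110 to 6689 reads between control and combination. For KLF6, NM_001300.6 went from 1251 to 4349 reads while NM_001160125.1 went from 371 to 292. For RASSF1, NM_170713.3 went from 424 to 1415 and NM_007182.5 from 84 to 91.9. For LGR4, NM_018490.5 went from 1171 to 179, and NM_001346432.1 was listed at 0 in control and at 128 with the combination. For SKP2, NM_032637.4 went from 307 to 49.7 and NM_005983.4 from 120 to 131. These SKP2 transcripts held only a minor part of the gene's reads, and its other transcripts are not given here. The division of reads between transcripts of a gene is an estimate, and these splits are uncertain.

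Of the members with near-identical copies, HSPA1A and MAGEA2B were checked by summing the copies. MAGEA2B had 897 reads in control, 1009 with NBT, 777 with trametinib and 346 with both drugs (0.369), but its near-identical copy MAGEA2 had 644, 1121, 876 and 2152 (3.19-fold). The sum of both was 1.55-fold of control, so MAGEA2B would not be a member if the copies were counted together.

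All 206 members were protein coding, as were 99.6% of all genes with at least 100 counts. The median of the highest TPM in any library was 27.8 for higher members, 26.6 for lower ones and 31.8 for all genes. Higher members had a median of 388 reads in control and lower members 1045, against 813 for all genes. The rule divides by the control count, so this contrast follows in part from the choice of genes. Genes with symbols of the C2H2 zinc finger families, looked at after values were seen, were 7 of the 102 higher members (6.86%) and 3 of the 104 lower (2.88%), against 3.76% of all genes. Within 200 kb of each other on a chromosome lay 11 pairs of members, of which 7 changed in the same direction. Such pairs were not counted over all genes, so nothing is read from these numbers. NEK1 and CLCN3, whose CRE windows are printed above, lay 7995 bases apart on chromosome 4 and stood at 2.04- and 2.08-fold. GFPT1 and AAK1 on chromosome 2 (3.07- and 2.06-fold) and E2F1 and ZNF341 on chromosome 20 (0.308 and 0.462) were further such pairs.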

How the data were processed

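Total RNA of 4 samples was sequenced, 1 library per condition. The labels describe a kit for bacterial rRNA. Per the submitters' processing notes, reads were processed with Bowtie2 2.2.5, RSEM 1.2.8 and the hg38 build. The authors deposited, per gene and per transcript, estimated counts, TPM and FPKM values of every library. Counting by strand was not given in the sources used here, so reads of antisense partners cannot be told apart. Estimated counts were used as deposited, with 0.5 added and scaled to the library sum. The authors' FPKM values were not used, and deposited TPM values served for levels and as an alternative.

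Libraries summed to 18776254 (control), 19437771 (NBT), 18949958 (trametinib) and 19614826 (combination) counts. With 1 library per condition no test was made, and intervals (Clopper-Pearson, scipy 1.17.1) cover counting error only. Reads are not independent molecules, and a count of 3 was taken as the limit that a count of 0 allows. The interval and ratio steps were tested on simulated counts.

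The members, 18 gene lists and 11 motifs were chosen with earlier results of these data known. Genes were named if they had the 15 highest or 15 lowest combination ratios, the 10 highest TPM in each direction, the 10 largest distances from both single drugs in each direction, a place in a list, or one of the 3 places nearest each limit. Other genes were named after their values were seen. Alternatives were edgeR 4.0.16 TMM factors, DESeq2 1.42.0 size factors, TPM with 0.1 added, 5 reads added, rounding, transcript sums and other limits. RefSeq promoter windows (GRCh38.p14) were used for motifs, with Python 3.11.15 and pandas 2.3.3.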

Additional observations from a re-analysis of the deposited data

How the results depend on the processing

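Scaling mattered little to the number of members but shifted the split. TMM factors gave 88 higher and 112 lower genes and median-of-ratios factors 87 and 114, with 182 and 177 of the members kept, and TPM values kept 164. The other limits moved the numbers more. Single drugs within 1.25-fold left 9 genes (3 higher, 6 lower), a 3-fold limit 12 (4 and 8), an interval wholly past 2-fold 79 (34 and 45), and 2-fold from both single drugs too 16 (5 and 11), each by its own construction. A minimum of 20 counts gave 280 genes and of 500 counts 146. All 6 medians of the members stayed in direction under the 6 settings that give ratios. Of 390 values recomputed for 65 named members, 7 moved by more than the counting error and 0 reversed, the largest of these 7 shifts being 0.35 (log2) for THRA. The rule put every combination ratio at least 2-fold from control, so a reversal was hardly possible and its absence is no check. The same holds for the combination medians. TPM values moved SETBP1 from -1.61 to -0.98, within its wide counting interval. No paired analysis was possible because each condition has 1 library. With no replicates, the spread between cultures is unknown, and genes near 2-fold may fall on either side of the limit in another culture. Depth limits most the members with under 100 reads in 1 library, such as TRAF1, GNG11 and SETBP1.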
